A study of Homo sapiens with 11 samples.

Results

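The expression of 10 genes of tumour angiogenesis was followed in human prostate tumours grown in mice with or without A2M*. The genes were taken by name from the deposited tables and all 10 were found among the 25590 genes listed there. They comprise the VEGF family ligands VEGFA, VEGFB, VEGFC and PGF, the platelet-derived growth factors PDGFA, PDGFB and PDGFC, the fibroblast growth factor FGF2, the coreceptor NRP1 and the inhibitor THBS1 (thrombospondin 1). The tumours had grown under the skin from PC-3 cells, a human prostate carcinoma line, given with matrigel to male athymic nude mice (Crl:NU-Foxn1nu) that were 8 weeks old. All mice therefore carried the same nude mutation and the same single cell line. Nude mice lack T cells and keep other host cells. The A2M* group received methylamine-transformed human alpha2-macroglobulin, purified from pooled human plasma, into the peritoneum at 5.6 mg per 20 g body weight from day 7, the control group received PBS, and the experiment ended on day 31. RNA sequencing covered 5 tumours of the PBS group and 6 tumours of the A2M* group, each with 1 library, and the labels give a number to every tumour and no batch. Tumours are named here by group and label number, such as PBS_123 or A2M_131.

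Angiogenesis, the growth of new vessels, depends on a balance of ligands and inhibitors. VEGFA binds the receptors FLT1 and KDR on endothelial cells and is a classical target of hypoxia-inducible factors, which are stabilised when oxygen is low. VEGFB and PGF bind FLT1, VEGFC drives lymphatic growth through FLT4, PDGF ligands recruit pericytes and fibroblasts through PDGFRA and PDGFRB, and FGF2 acts on FGF receptors with heparan sulphate. NRP1 binds VEGFA together with KDR, and THBS1 is a secreted matrix glycoprotein that restrains endothelial cells through CD36 and CD47. LRP1, the receptor of A2M*, also takes up THBS1.

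Between 16958533 and 35874381 reads per tumour were assigned to human genes, and a detection floor of 3 counts corresponded to 0.0852 to 0.177 CPM (counts per 1e+06 counts, scaled with TMM factors from edgeR). This floor covers counting error only. Of 16630 genes tested with edgeR's quasi-likelihood test, a share of 0% passed an adjusted p of 0.01, and the smallest adjusted p was 0.599. An unadjusted p under 0.05 was reached by 7.08% of the genes, with 3.53% lower under A2M*, and the CPM of the groups did not overlap for 0.710% of the genes. DESeq2 called 1 gene, which was none of the 10. The epithelial origin of the labelled cells matched the data, since KRT18 and KRT19, keratins of epithelial cells, had mean levels of 316 and 394 RPKM (reads per kilobase of exon and per 1e+06 reads). These keratins cannot tell PC-3 from other epithelial lines. The tables hold only reads sorted as human. In bulk tumour RNA, fewer cells of a type cannot be told apart from less RNA per cell.

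Per exon length, THBS1 was the most abundant of the 10 transcripts and PGF the scarcest. The mean level over the 11 tumours was 397 RPKM ± 86.3 (SD) for THBS1, 159.5 RPKM ± 29.9 for NRP1 and 78.2 RPKM ± 17.9 for VEGFA. PDGFB followed at 43.6 RPKM ± 7.06, VEGFC at 37.4 RPKM ± 3.87, PDGFC at 31.03 RPKM ± 1.81 and VEGFB at 24.8 RPKM ± 5.91. PDGFA at 6.50 RPKM ± 0.601, FGF2 at 1.17 RPKM ± 0.263 and PGF at 0.499 RPKM ± 0.177 formed the lower end. The inhibitor THBS1 and the coreceptor NRP1 thus stood above every ligand of the set in the mean. All 9 neighbouring pairs in this order differed within tumours on the log2(RPKM + 0.1) scale (two-sided exact sign-flip permutation test, adjusted p between 0.00126 and 0.0176). The order was set from the same values, and the test covers only the spread between tumours. A bias of a gene that all tumours share, as from its exon length or an overlapping gene, is not covered, which matters most for small ratios. For 7 of these pairs the upper gene was higher in 11 of 11 tumours. PDGFB was above VEGFC in 9 of 11 tumours with a geometric mean ratio of 1.16 (exact permutation test, adjusted p = 0.0176). PDGFC was above VEGFB in 9 of 11 tumours with a ratio of 1.28 (exact permutation test, adjusted p = 0.00879). With the 6 A2M* tumours alone, PDGFB and VEGFC were not told apart (higher in 4 of 6, adjusted p = 0.375, exact permutation test), nor were PDGFC and VEGFB (higher in 5 of 6, adjusted p = 0.0703, exact permutation test). The 5 PBS tumours cannot give a p below 0.0625 in this test.

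**Figure D1:**
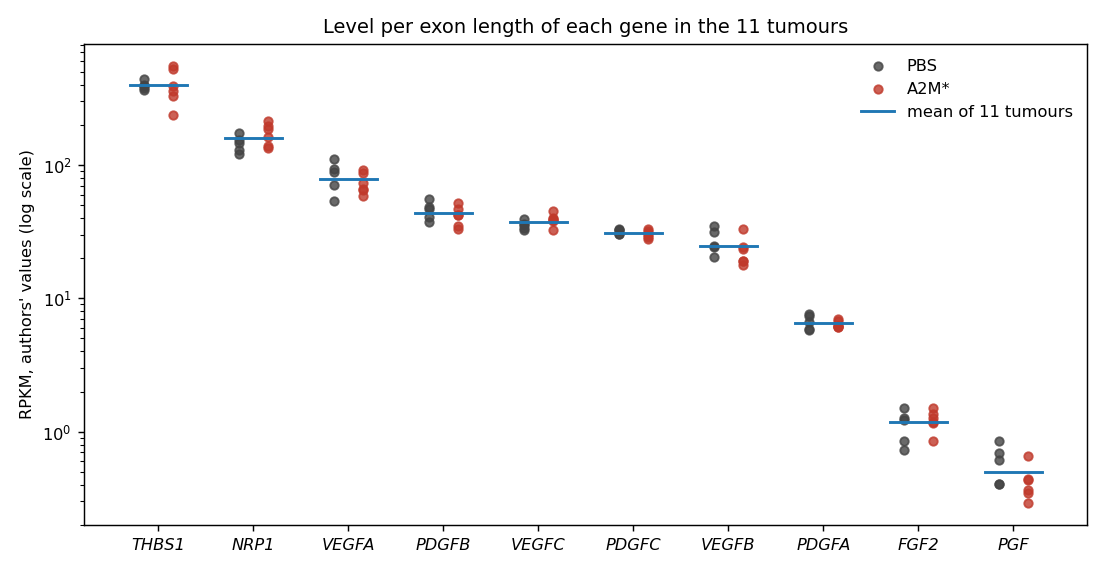
RPKM of each gene (log axis) in 5 PBS tumours (grey) and 6 A2M* tumours (red), ordered by the mean of the 11 tumours (blue line). The levels run from 397 RPKM for THBS1 down to 0.499 RPKM for PGF, and the points of PDGFB, VEGFC, PDGFC and VEGFB lie side by side.

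Within the VEGF family VEGFA made up most of the ligand RNA. Of the summed RPKM of the 4 VEGF family ligands, VEGFA took 56.2% ± 5.43 (SD, n = 5) in PBS tumours and 53.8% ± 3.30 (SD, n = 6) in A2M* tumours. VEGFC took 24.7% ± 3.75 and 29.2% ± 5.25, VEGFB took 18.7% ± 3.60 and 16.7% ± 2.25, and PGF took 0.398% ± 0.0851 and 0.306% ± 0.0600. Among the PDGF ligands, PDGFB held 54.1% ± 3.13 in PBS and 52.9% ± 4.66 in A2M* tumours, ahead of PDGFC with 38.0% ± 2.84 and 38.9% ± 4.32 and PDGFA with 7.92% ± 0.628 and 8.15% ± 0.597. The ranges of these shares overlapped between the groups for all 7 ligands. Relative to THBS1, the VEGFA level was 13.5% to 25.8% of the THBS1 RPKM in PBS tumours (median 23.5%) and 12.7% to 38.6% in A2M* tumours (median 17.0%).

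None of the 10 genes passed the adjusted p of 0.01 between A2M* and PBS tumours, against 0% of all genes tested. The fitted log2 fold change was below 0 for 7 genes and above 0 for 3. Among all 16630 genes tested it was below 0 for 8410 and above 0 for 8220. The median was -0.11 over the 10 genes and -0.0021 over all genes tested. Some of the 10 genes varied together over the tumours, so their signs are not independent. Only PGF had an unadjusted p under 0.05, which is 1 of 10 genes beside 7.08% of all genes, and its p was above 0.05 under some other methods. The CPM values of the groups overlapped for each of the 10 genes, while they were free of overlap for 0.710% of all genes. Fold changes below are A2M* over PBS from edgeR, so that a negative log2 value is a lower fitted level under A2M*.

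**Figure D2:**
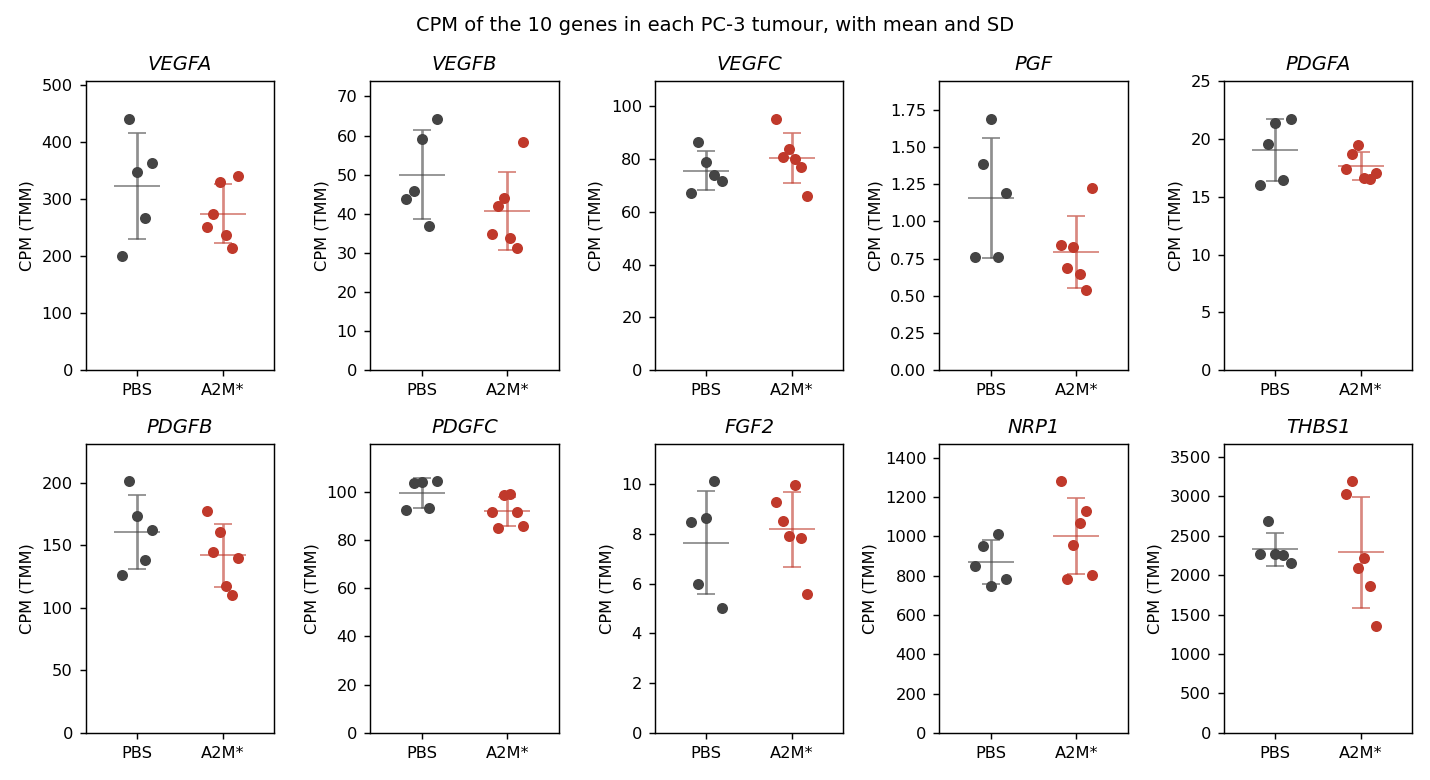
CPM (linear axis from 0) of each of the 10 genes in 5 PBS tumours (grey points) and 6 A2M* tumours (red points), with the group mean and SD as a bar. The groups overlap in every panel, and THBS1 spreads from 1349 to 3186 CPM under A2M* but from 2156 to 2688 CPM under PBS.

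VEGFA (GRCh37 chr6:43737921-43754224, plus strand) was counted with 5603 to 13679 reads per tumour. In the tumours PBS_123, PBS_124, PBS_125, PBS_126 and PBS_127 it reached 199.55, 441, 348, 266 and 362 CPM. In the A2M* tumours the lowest value was 214 CPM (A2M_131), the median 262 CPM and the highest 340.04 CPM (A2M_132). The PBS group held both the lowest and the highest tumour, so that the A2M* values lay inside its range. The means were 323 ± 92.9 CPM (SD, n = 5) and 275 ± 51.1 CPM (SD, n = 6), and the log2 fold change was -0.24 (SE 0.178, 95% interval -0.62 to 0.15, edgeR adjusted p = 0.844). Without PBS_124, the highest, the log2 fold change was -0.099, and without PBS_123, the lowest, it was -0.37 (edgeR, unadjusted p = 0.0312, adjusted p at least 0.594 in all such fits). An exon of a noncoding gene on the other strand overlaps VEGFA, and the library kit does not mark strand.

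VEGFB (chr11:64002056-64006736, plus strand), a ligand of FLT1 linked to fatty acid uptake, had values of 43.8, 45.8, 59.1, 36.9 and 64.3 CPM in tumours PBS_123 to PBS_127. In A2M* tumours it ranged from 31.2 CPM (A2M_131) over a median of 38.5 CPM to 58.4 CPM (A2M_132). Of the A2M* tumours, 3 lay below every PBS tumour, while A2M_132 was higher than 3 of the PBS tumours. The log2 fold change was -0.30 (SE 0.170, 95% interval -0.66 to 0.067, edgeR adjusted p = 0.772). It lay between -0.43 without A2M_132 (edgeR, unadjusted p = 0.0125, adjusted p = 0.420) and -0.19 without PBS_127 (unadjusted p = 0.284).

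PGF (placental growth factor, chr14:75408537-75422329, minus strand) was the least expressed of the set, with 14 to 56 reads per tumour. In tumours PBS_123 to PBS_127 its values were 0.763, 1.39, 1.69, 0.764 and 1.19 CPM. In A2M* tumours they ranged from 0.541 CPM (A2M_131) over a median of 0.757 CPM to 1.22 CPM (A2M_132). PBS_123, PBS_126 and PBS_127 lay within the range of the A2M* group, and A2M_132 lay above 3 of the PBS tumours. The log2 fold change was -0.57 (SE 0.255, 95% interval -1.12 to -0.023), which is a fold of 0.673 with an interval of 0.461 to 0.984. The unadjusted p was 0.0422 and the edgeR adjusted p 0.698, so this difference did not pass the threshold. The unadjusted p was above 0.05 with library size only (0.0539), DESeq2 (0.0503), limma-voom (0.0521) and the exact permutation test (0.0931), and in 8 of the 11 fits that left out a tumour. Leaving out each tumour in turn gave log2 values between -0.73 (without A2M_132) and -0.39 (without PBS_125, the highest).

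VEGFC (chr4:177604689-177714076, minus strand), the lymphatic growth factor, was the VEGF ligand with a fitted value above 0. It reached 67.1 to 86.5 CPM in the PBS group and 66.0 to 95.2 CPM in the A2M* group, and the ranges overlapped. The log2 fold change was 0.091 (SE 0.0897, 95% interval -0.10 to 0.28, edgeR adjusted p = 0.890), and 0.038 without A2M_112.

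The PDGF ligands had fitted values below 0 for 3 of 3 genes and none had an unadjusted p under 0.05. PDGFB (chr22:39619364-39640987, minus strand), which holds pericytes to vessels, had 126.3, 201, 174, 138 and 162 CPM in tumours PBS_123 to PBS_127. In A2M* tumours it had 110.2 CPM at the lowest (A2M_131), 142 CPM at the median and 178 CPM at the highest (A2M_112). PBS_124 was the highest of all for PDGFB as it was for VEGFA. The log2 fold change of PDGFB was -0.18 (SE 0.137, 95% interval -0.47 to 0.12, edgeR adjusted p = 0.849), and -0.082 without PBS_124. PDGFC (chr4:157681606-157892951, minus strand), a ligand activated by cleavage of its CUB domain, varied least between tumours of a group, with an SD of log2 CPM within groups of 0.0922 beside a median of 0.185 over all genes tested. Its CPM was 92.3 to 104 in PBS and 85.0 to 98.9 in A2M* tumours, with a log2 fold change of -0.11 (SE 0.0634, 95% interval -0.25 to 0.022, edgeR adjusted p = 0.770). PDGFA (chr7:536895-559933, minus strand), the ligand of PDGFRA, was at 16.0 to 21.8 CPM in PBS and 16.6 to 19.5 CPM in A2M* tumours, with a log2 fold change of -0.11 (SE 0.0953, 95% interval -0.32 to 0.092, edgeR adjusted p = 0.866), and -0.060 without PBS_127.

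FGF2 (chr4:123747837-123819391, plus strand), a growth factor for endothelial cells that leaves the cell without a signal peptide, had at most 297 reads per tumour. In tumours PBS_123 to PBS_127 it was at 8.49, 5.99, 8.63, 10.1 and 5.03 CPM. In A2M* tumours it was at 5.598 CPM at the lowest (A2M_132), 8.22 CPM at the median and 9.98 CPM at the highest (A2M_130). The A2M* range lay within that of the PBS group. The log2 fold change was 0.10 (SE 0.182, 95% interval -0.29 to 0.50, edgeR adjusted p = 0.941). The exons of FGF2 overlap those of NUDT6 on the other strand, and reads of the overlap cannot be told apart without strand.

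NRP1 (chr10:33466420-33625190, minus strand), the coreceptor for VEGFA and semaphorins, had values of 851, 953, 746, 1012 and 784 CPM in tumours PBS_123 to PBS_127. Under A2M* the lowest value was 783 CPM (A2M_128), the median 1013 CPM and the highest 1279 CPM (A2M_112). A2M_112, A2M_130 and A2M_131 were above every PBS tumour, and the other 3 lay within the PBS range. The means were 869 ± 112.1 CPM (SD, n = 5) and 1004 ± 193 CPM (SD, n = 6), and the log2 fold change was 0.21 (SE 0.130, 95% interval -0.073 to 0.49, edgeR adjusted p = 0.799). Without A2M_112 the log2 value was 0.13. A noncoding gene on the other strand overlaps exons of NRP1.

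THBS1 (chr15:39873280-39891667, plus strand) was counted with 30838 to 106529 reads per tumour. In tumours PBS_123 to PBS_127 it reached 2268, 2688, 2271, 2252 and 2156 CPM. In A2M* tumours the lowest value was 1349 CPM (A2M_132), the median 2151 CPM and the highest 3186 CPM (A2M_128). The A2M* tumours lay on both sides of the PBS tumours, with A2M_112 and A2M_128 above all of them and A2M_129, A2M_131 and A2M_132 below all of them. The means were 2327 ± 207 CPM (SD, n = 5) and 2288 ± 703 CPM (SD, n = 6), and the coefficient of variation was 8.90% and 30.7%, and this difference in spread was not tested. The log2 fold change was -0.024 (SE 0.181, 95% interval -0.41 to 0.36, edgeR adjusted p = 0.988), and its sign changed with the scaling and with single tumours left out. Exons of FSIP1 and THBS1-AS1 overlap THBS1 on the other strand.

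**Figure D3:**
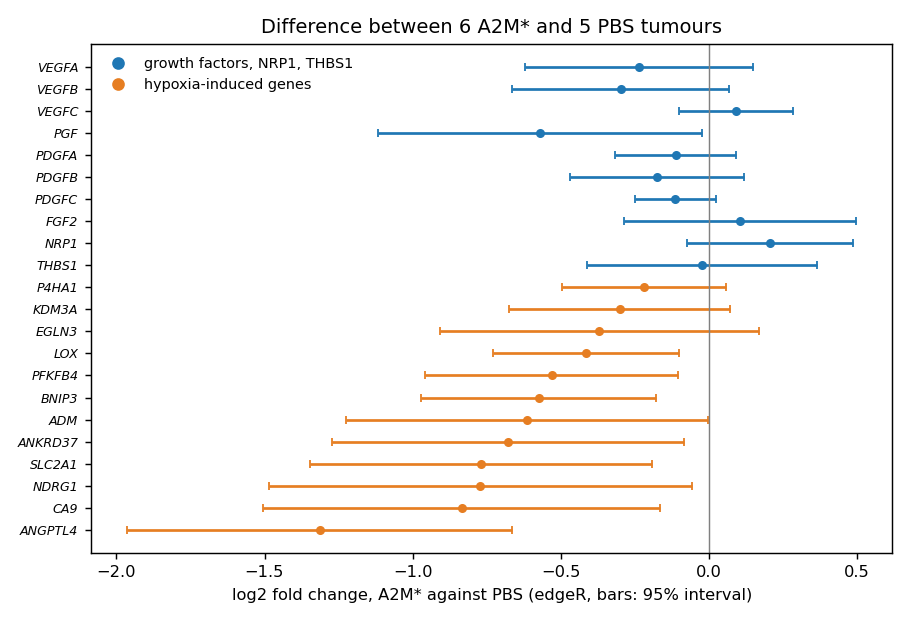
Log2 fold change of A2M* over PBS (points) with the 95% interval (bars) from edgeR for the 10 genes (blue) and for 12 hypoxia-induced genes (orange). Among the 10 genes only the interval of PGF, -1.12 to -0.023, does not reach 0, and no gene shown passed an adjusted p of 0.01.

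Because VEGFA is a target of hypoxia-inducible factors, each of the 10 genes was set against a list of 12 genes that hypoxia is known to induce, none of them among the 10. The list was scored in each tumour as the mean z-score of log2 CPM. In tumours PBS_123 to PBS_127 the score was -0.643, 0.992, 1.44, 0.461 and 0.613. In A2M* tumours it ranged from -1.62 (A2M_131) to 0.429 (A2M_132). The list itself had log2 fold changes below 0 for 12 of 12 genes, with a median of -0.59, and 9 of 12 had an unadjusted p under 0.05, beside 3.53% of all genes lower at that p, but 0 passed the adjusted p of 0.01. Examples are ANGPTL4, which codes for a secreted inhibitor of lipoprotein lipase, at a log2 fold change of -1.31 (SE 0.302, edgeR adjusted p = 0.599), and CA9, a carbonic anhydrase of the cell surface, at -0.83 (SE 0.312, edgeR adjusted p = 0.642). SLC2A1, the glucose transporter GLUT1, and NDRG1 had log2 fold changes of -0.77 each, ANKRD37 of -0.68, ADM (adrenomedullin) of -0.61, BNIP3, a mitophagy receptor, of -0.58, PFKFB4 of -0.53 and LOX, a collagen crosslinking enzyme, of -0.42, each with an unadjusted p under 0.05. P4HA1, a collagen prolyl hydroxylase, had -0.22 and an unadjusted p of 0.109 in edgeR. The list was chosen with these lower values known, so its direction is a description. The p-values of relations to its score do not allow for that choice.

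PGF and VEGFA followed this score over the tumours. For PGF, Pearson's r was 0.887 over 11 tumours (permutation test, p = 0.00032, adjusted p = 0.0032 over 10 relations) and Spearman's rho 0.845 (permutation test, adjusted p = 0.0191). For VEGFA, r was 0.796 (permutation test, p = 0.00369, adjusted p = 0.0184) and rho 0.809 (permutation test, adjusted p = 0.0192). The 5 tumours with the highest VEGFA (331 CPM or more), PBS_124, PBS_125, PBS_127, A2M_129 and A2M_132, had scores of 0.291 or more. PBS_126 went against this order, with a score of 0.461 and VEGFA at 266 CPM, as did A2M_128, with a score of -1.15 and VEGFA at 274 CPM. With each value centred on its group mean, r was 0.838 for PGF (exact permutation test within groups, adjusted p = 0.0133) and 0.803 for VEGFA (adjusted p = 0.0256, same test). Within the 6 A2M* tumours r was 0.831 for PGF (exact permutation test, p = 0.0389) and 0.819 for VEGFA (exact permutation test, p = 0.0472). Without the 2 tumours farthest from the median score, A2M_128 and A2M_131, r was 0.853 for PGF and 0.845 for VEGFA (exact permutation test, adjusted p = 0.026 for each). Without A2M_131 alone the adjusted p of VEGFA was 0.0630 at r = 0.754. Both measures of each tumour came from the same library.

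The other 8 genes did not pass an adjusted p of 0.05 by Pearson's r against the score. VEGFB (r = 0.690) and PDGFB (r = 0.679) each had an adjusted p of 0.0565, PDGFC (r = 0.645) had 0.0657 and PDGFA (r = 0.615) had 0.0759 in the permutation test. By Spearman's rho VEGFB (0.736, adjusted p = 0.0329) and PDGFC (0.755, adjusted p = 0.0312, permutation test) passed as well. VEGFC (r = -0.034), THBS1 (r = -0.14), FGF2 (r = -0.34) and NRP1 (r = -0.41) had coefficients below 0, with adjusted p between 0.295 and 0.920 in the permutation test.

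**Figure D4:**
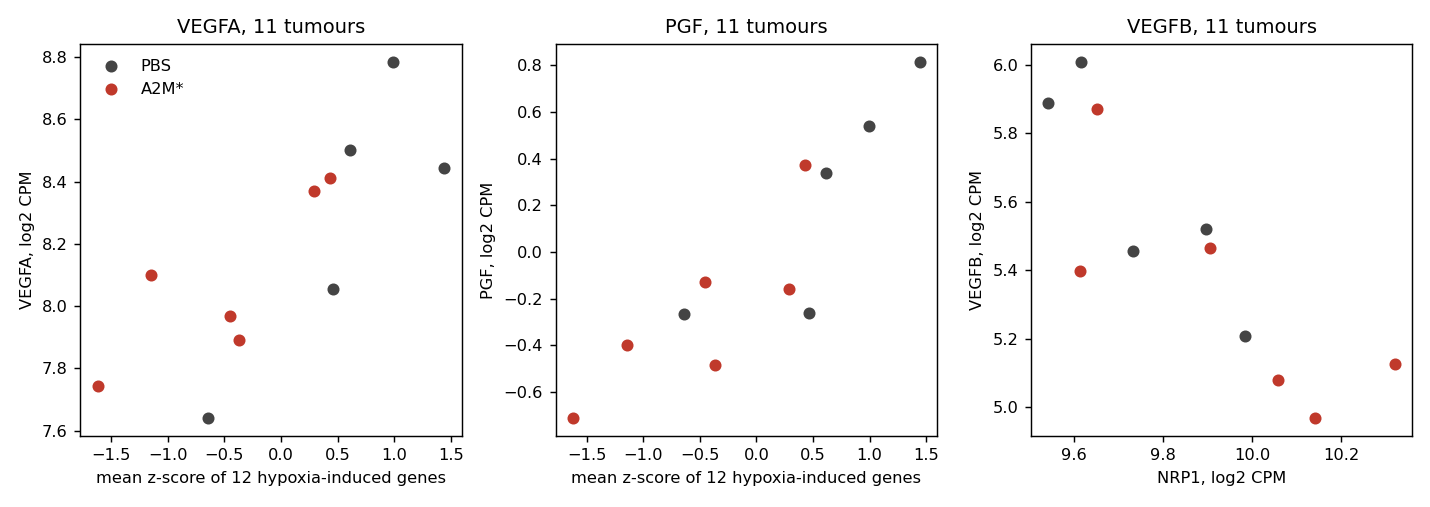
Log2 CPM of VEGFA and PGF against the mean z-score of 12 hypoxia-induced genes, and of VEGFB against NRP1, in 5 PBS tumours (grey) and 6 A2M* tumours (red). VEGFA (r = 0.796) and PGF (r = 0.887) rise with the score in points of both colours, and VEGFB falls with NRP1 (r = -0.840).

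Among the 45 pairs of the 10 genes, 3 passed an adjusted p of 0.05 by Pearson's r over the 11 tumours (permutation test, adjusted p = 0.0348 for each). VEGFB and PGF varied together (r = 0.830, rho = 0.818), as did VEGFA and PGF (r = 0.820, rho = 0.818). By Spearman's rho 7 of the 45 pairs passed, these 3 and VEGFA with VEGFB (rho = 0.809), VEGFA with PDGFA (0.855), PGF with PDGFB (0.809) and PDGFA with PDGFB (0.782; permutation test, adjusted p between 0.0347 and 0.0416 for the 7). VEGFB and NRP1 varied in opposite directions (r = -0.840, rho = -0.791), with A2M_130, A2M_131 and A2M_112 high in NRP1 and low in VEGFB. With values centred on the group means the coefficients were 0.782, 0.816 and -0.805 in that order, and the adjusted p was 0.113 for each (exact permutation test within groups), so that none of the 3 was kept. With single tumours left out r stayed between 0.783 and 0.879 for VEGFB and PGF, between 0.781 and 0.864 for VEGFA and PGF and between -0.907 and -0.806 for VEGFB and NRP1, while the number of pairs past the threshold lay between 0 and 8. VEGFC had its highest coefficient with THBS1 and NRP1, and FGF2 was below 0 with every VEGF ligand but VEGFC, as the map of coefficients shows.

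**Figure D5:**
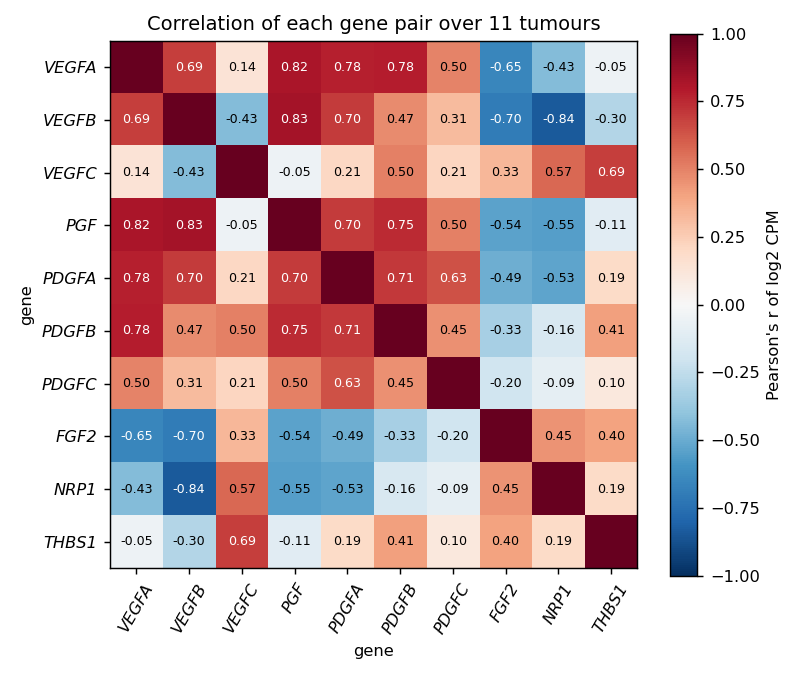
Pearson's r of log2 CPM over 11 tumours for each pair of the 10 genes, from -1 (blue) to 1 (red), with the coefficient printed in each cell. VEGFA, VEGFB, PGF, PDGFA and PDGFB are positive with one another, while FGF2 and NRP1 are negative with these 5 genes, and 3 of the 45 pairs passed an adjusted p of 0.05.

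The bases before the start of VEGFB and PGF, which varied together, are given with those of THBS1, the most abundant gene, which did not pass with either. Promoters of 6 of the 10 genes were matched in RefSeq (GRCh38.p14, 10 starts in all): VEGFB, VEGFC, PGF, FGF2, PDGFA and THBS1. Only the 250 bases before each start were searched, on both strands, for ACGTG and GCGTG, the cores bound by hypoxia-inducible factors, and for GGGCGG, a core of SP1 sites. Capitals mark GCGTG.
PGF, chr14:74955765-74956014, minus strand: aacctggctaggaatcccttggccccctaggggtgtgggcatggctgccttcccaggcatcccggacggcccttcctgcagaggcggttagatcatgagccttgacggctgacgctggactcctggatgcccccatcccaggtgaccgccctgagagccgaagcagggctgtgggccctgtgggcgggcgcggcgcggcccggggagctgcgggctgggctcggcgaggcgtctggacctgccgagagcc
VEGFB, chr11:64234334-64234583, plus strand: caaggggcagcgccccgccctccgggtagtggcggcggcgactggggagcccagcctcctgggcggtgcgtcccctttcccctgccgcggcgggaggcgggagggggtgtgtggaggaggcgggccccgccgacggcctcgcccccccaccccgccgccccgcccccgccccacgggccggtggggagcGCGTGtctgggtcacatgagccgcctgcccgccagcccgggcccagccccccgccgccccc
THBS1, chr15:39580829-39581078, plus strand: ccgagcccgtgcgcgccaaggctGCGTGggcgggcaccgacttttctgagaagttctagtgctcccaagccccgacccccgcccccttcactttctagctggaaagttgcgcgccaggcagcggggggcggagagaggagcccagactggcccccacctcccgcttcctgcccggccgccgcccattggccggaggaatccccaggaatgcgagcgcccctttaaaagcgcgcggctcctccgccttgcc
GCGTG was found in 8 of the 10 promoters, beside 32.2% of 35116 RefSeq promoters of the same length. The 10 are not independent, since they belong to 6 genes, PDGFA and PGF have more than 1 start and the windows of PGF overlap. No promoter of VEGFA was matched. A difference from the share of all promoters was not tested. It occurs 1 time in the VEGFB and THBS1 stretches shown and 0 times in that of PGF, whose other start has 1. In THBS1 it shares 1 base with a match of GGGCGG there. No window held ACGTG, which was found in 18.5% of all promoters. The SP1 core was found in 10 of the 10, beside 42.6% of all promoters. These are matches of letters in the windows searched and say nothing on binding.

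For each gene the tested genes with the highest Pearson's r of log2 CPM over the 11 tumours were listed as a description. They were picked as the highest among 16630 genes tested, and none of these coefficients was tested. With 11 tumours such a selection gives high values by itself, so they are no sign of a shared function. Among the closest to VEGFA were CRTC2 (r = 0.940), a coactivator of CREB, and SLAMF9 (r = 0.934). The closest to PGF were EFNA3 (r = 0.947), an ephrin ligand, LINC00312 (r = 0.942) and FZD8 (r = 0.936), a Wnt receptor. VEGFB was closest to ZNF581 (r = 0.975), HCFC1R1 and TENM4, VEGFC to RTN4 (r = 0.931), EMC4 and EOGT, and PDGFA to LITAF (r = 0.949), SYT7 and LOC283070. PDGFB was closest to SIK1 (r = 0.971), C10orf10 and LAMB3, PDGFC to AGAP1 (r = 0.885), CERK and MMS19, and FGF2 to KLHL11 (r = 0.931), TFDP1 and ASAH2. NRP1 was closest to LOC101929690 (r = 0.969), TMEM171 and ZEB2, a repressor of E-cadherin, and among the closest to THBS1 were SLC31A2 (r = 0.941) and DYSF (r = 0.936).

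Few other genes of the pathway differed between the groups in the human reads, even at an unadjusted p. Reads sorted as mouse were not examined here, so host cells are not covered. None of the receptors (0 of 13 tested), inhibitors other than THBS1 (0 of 12), thrombospondin receptors (0 of 7) or enzymes that process the ligands (0 of 9) had an unadjusted p under 0.05, beside 7.08% of all genes. Of 14 other ligands tested, 1 did so, ANG (angiogenin, a secreted ribonuclease), with a log2 fold change of -0.44 (SE 0.184, edgeR adjusted p = 0.676). FIGF, a further ligand, had 0 to 9 human reads per tumour and was not tested. The paper lists FIGF among the genes lower under A2M* in the mouse reads of the xenografts. Their medians were -0.098 for receptors, -0.014 for other ligands, -0.075 for inhibitors, -0.031 for thrombospondin receptors and 0.054 for the processing enzymes. In the human reads the 13 receptors ran from 0.0671 RPKM for KDR (7 to 27 reads per tumour) and 0.205 RPKM for FLT1 upwards. FLT4 stood at 2.54 RPKM, FGFR1 at 5.88 RPKM and the heparan sulphate carriers GPC1 and SDC4 at 20.4 and 163 RPKM. Receptor RNA of the mouse host is not in these reads, so these levels and tests do not cover receptors on host cells. Of the other lists, PLAU, the urokinase-type plasminogen activator, stood at 1953 RPKM, PCSK7 at 35.5 RPKM, CYR61 at 216 RPKM, CTGF at 99.0 RPKM, SEMA3F at 179 RPKM and SPARC at 140 RPKM. CALR (1059 RPKM) and ITGB1 (576 RPKM) led the thrombospondin receptors.

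Markers of cell types that a host can supply had levels from near 0 to 89.0 RPKM in these human reads. Of 9 endothelial markers the summed level was 76.95 to 109 CPM in PBS and 74.7 to 161 CPM in A2M* tumours, carried mostly by ROBO4 (17.1 RPKM) and PECAM1 (3.93 RPKM), while the defining marker CDH5 had 2 to 17 reads per tumour. Summed levels of 8 markers of mural cells and fibroblasts were 338 to 721 CPM in PBS and 335 to 947 CPM in A2M* tumours, led by COL1A1 (89.0 RPKM) and COL3A1 (5.38 RPKM), with DCN at 0 to 3 reads. Summed levels of 7 macrophage markers were 24.6 to 35.2 CPM and 24.2 to 33.8 CPM, led by CD68 (13.1 RPKM) and CSF1R (0.629 RPKM), with AIF1 at 0 to 1 reads and CD163 at 0 to 2 reads. Of 6 endothelial markers tested, 1 had an unadjusted p under 0.05 in edgeR, beside 7.08% of all genes. That was VWF, a clotting factor with 11 to 33 reads per tumour (log2 fold change -0.42, SE 0.168, edgeR adjusted p = 0.648, DESeq2 unadjusted p = 0.0792). Most of the list went the other way, with 4 of the 6 above 0 and a median of 0.092. Of 6 mural and fibroblast markers tested, 1 reached that p, RGS5, a pericyte marker (0.33, SE 0.116, edgeR adjusted p = 0.640). Among those 6, 4 were above 0 and 2 below. The ranges of all 3 marker sums overlapped between the groups, and their part in the values of the 10 genes was not tested.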

How the data were processed

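RNA of 11 PC-3 xenograft tumours (5 PBS, 6 A2M*) was sequenced as single reads after TruSeq library preparation, which does not mark strand. The authors converted base calls with bcl2fastq 1.8.4, sorted reads by species with xenome, mapped human reads to hg19 with TopHat2 and assigned them to RefSeq genes with featureCounts; its strand setting is not given in the sources used here. The deposited counts per gene are whole numbers without normalization. The deposited RPM values, scaled by the total of each tumour, and the deposited RPKM values, also divided by exon length, were made from them by the authors. RPM was not used for any test.

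Counts were filtered with filterByExpr, TMM-scaled and compared between groups in edgeR 4.0.16 (R 4.3.3; quasi-likelihood test) over 16630 genes, without covariates. The threshold was an adjusted p (Benjamini-Hochberg) of 0.01. Standard errors are the log2 fold change over the root of the F statistic. Levels of different genes were compared as log2(RPKM + 0.1) by exact sign flips over 2048 patterns. Relations used log2 CPM (prior count of 2) and 100000 permutations, with a threshold of 0.05 on the adjusted p, or all orders within groups. Alternatives used DESeq2 1.42.0 and limma 3.58.1, other edgeR tests, scalings and filters, and left out each tumour. The edgeR comparison was tested on simulated counts. The 10 genes and all lists were chosen with earlier results of these data known. In the other lists, genes with an unadjusted p under 0.05 and the 2 with the highest mean RPKM are named. FIGF, FLT1, KDR, FLT4, FGFR1, CDH5, DCN, AIF1 and CD163 are named outside this rule, after their values were seen. The labels do not say beyond the tumour number that tumours came from separate mice, so p-values measure the spread between these tumours. For each of the 10 genes the 3 tested genes with the highest Pearson's r are named, except 2 that are not reported here. Positions are from GENCODE on GRCh37, and the tumours share no numbers between groups. Figures were drawn with matplotlib 3.10.9.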

Additional observations from a re-analysis of the deposited data

Results flagged for a closer look

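Groups of values were taken per gene and treatment for the 10 genes and the list genes named by the rule above. List genes named outside that rule were not searched. The read totals and the hypoxia score were included, which gave 86 groups. Of these, 5 had a tumour far from the rest of its group by Dixon's test. Chance flags about 1 in 20 groups, or 4.3 of 86, so that 5 is about the number chance gives. Among the 10 genes this was THBS1 in PBS_124, at 2688 CPM beside 2156 to 2271 CPM in the other PBS tumours. A2M_112 was far above its group for 3 genes. CTGF was at 411 CPM beside 183 to 223 CPM, PLAU at 8347 CPM beside 3571 to 5124 CPM and ROBO4 at 122 CPM beside 42.6 to 70.5 CPM. A2M_131 was low for SDC4, at 307 CPM beside 409 to 448 CPM.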

How the results depend on the processing

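Of 210 alternative values of the log2 fold changes of the 10 genes, 204 kept direction and side of the threshold and 6 changed sign, all for THBS1 or FGF2. THBS1 was 0.017 with library size only and between -0.14 and 0.090 with single tumours left out. The values above 0 there were 0.033 without PBS_124 and 0.0014, 0.030 and 0.090 without A2M_129, A2M_131 and A2M_132. FGF2 lay between -0.016 (without PBS_127) and 0.22. The count of genes past the adjusted p of 0.01 was 1 with DESeq2, the exact test or the likelihood ratio test of edgeR, and 241 with an unadjusted p not above 0.01 by edgeR and also by DESeq2. It was 0 with each tumour left out, where 682 to 1684 genes had an unadjusted p under 0.05, beside 1178 in the full set. The 9 neighbours in the order of levels gave 0 calls with PBS tumours alone, which 5 tumours cannot avoid, and 9 with any tumour left out. The count of 3 pairs of genes past the threshold was 1 without the 2 farthest tumours (VEGFA with VEGFB, none of the 3), 0 when centred and 0 to 8 with single tumours left out (8 without A2M_132, 6 without A2M_112, 0 without PBS_125, PBS_126, PBS_127, A2M_129, A2M_130 or A2M_131). The 2 relations to the hypoxia score became 1 without A2M_131, 5 without A2M_128 and 1 to 5 over all tumours left out. Of 65 alternatives of called correlations, 36 kept the call and 29 lost it. Apart from the construction of the smaller sets, the cause was not tested. No paired analysis was possible because the groups share no tumour numbers. With 14 to 56 reads, depth limits PGF most.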
